A study of Mus musculus with 10 samples.

Results

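The genes of 10 secreted cytokines of T cells, Ifng, Il2, Il3, Csf2, Il10, Il4, Il5, Il13, Il21 and Il17a, were followed in CD8+ T cells that had been cultured with 4T1 mouse breast cancer cells. They were taken by name from the 57825 genes of the expression table, in which each name occurred once. The T cells were isolated from spleens of female Balb/c mice with a magnetic selection kit and activated for 12 h on plate-bound anti-CD3 with anti-CD28 and recombinant IL-2 at 15 ng/ml. They were then kept for 24 h with or without 5 mM sodium acetate (NaAc) and co-cultured with 4T1 cells for 48 h, and RNA of the CD8+ T cells purified from these cultures was sequenced at day 3. The group without acetate (CD8+4T1) and the group with acetate (CD8+4T1+NaAc) each held 5 samples. Both groups carried the activation, the added IL-2 and the 4T1 cells, so the comparison asked only how acetate-exposed cells differed within the co-culture. The labels do not say whether the 5 samples came from separate animals or cultures, so the p-values below measure the spread between these samples, which may be technical.

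These cytokines are the messages by which an activated T cell acts on other cells. Interferon-gamma, the product of Ifng, is the defining type 1 cytokine and the main one of CD8+ T cells, whereas Il4, Il5 and Il13 encode type 2 cytokines and Il17a the cytokine that names type 17 cells. IL-2 and IL-21 bind receptors that share the common gamma chain, IL-3, IL-5 and GM-CSF (encoded by Csf2) bind receptors that share a beta chain, and IL-10 restrains inflammation. The transcripts are switched on through the T cell receptor by NFAT and AP-1 factors and are generally short-lived.

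Expression was given as FPKM, which scales fragments to the length of the gene and to the fragments of the sample, so levels of different genes may be compared with each other. The number of fragments behind each value, recovered from the FPKM and the gene length, referred to libraries of between 16306447 and 18853726 fragments. Replicate 1 of CD8+4T1+NaAc stood apart from its group, with 20233 genes detected against 24681 to 25088 in the remaining 4, and replicate 1 of CD8+4T1 had 22291 against 23786 to 24054. For the 10 cytokine genes, fold changes and calls that rest on these libraries are given with and without them. Rescaling the samples to the same total FPKM moved the median log2 fold change over all genes tested from -0.02 to 0.16, rescaling to T cell markers moved it to 0.22, and the share of calls that were higher with acetate went from 48.1% to 78.0% and 86.0%. In bulk RNA, a change in the number of cells that make a transcript and a change in the transcript per cell cannot be told apart.

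RefSeq promoter windows (build GRCm38.p6, 250 bases before to 50 after the annotated start) were at hand for 9 of the 10 genes, with 2 windows for Il4, and Il10 had no entry. The 250 upstream bases of 4 of them are shown 5′ to 3′ on the gene's own strand. Ifng is shown because it had the highest level, Il3 because it passed the test, and Il2 and Il17a because their values differed between the groups in a part of the settings. Capitals mark every match to the motifs searched on both strands, and the last base printed is base -1 before the start.
Ifng, chr10:118440796-118441045, plus strand: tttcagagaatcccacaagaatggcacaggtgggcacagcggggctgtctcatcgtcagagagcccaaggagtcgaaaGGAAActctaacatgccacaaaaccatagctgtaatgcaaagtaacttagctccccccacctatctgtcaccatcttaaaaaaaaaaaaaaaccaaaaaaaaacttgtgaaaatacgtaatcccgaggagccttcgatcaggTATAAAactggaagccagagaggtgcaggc
Il3, chr11:54267280-54267529, minus strand: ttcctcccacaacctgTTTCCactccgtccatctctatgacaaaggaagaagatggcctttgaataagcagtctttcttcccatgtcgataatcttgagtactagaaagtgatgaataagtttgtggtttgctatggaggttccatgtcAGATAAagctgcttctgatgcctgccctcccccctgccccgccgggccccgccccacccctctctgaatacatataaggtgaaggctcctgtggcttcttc
Il2, chr3:37125955-37126204, minus strand: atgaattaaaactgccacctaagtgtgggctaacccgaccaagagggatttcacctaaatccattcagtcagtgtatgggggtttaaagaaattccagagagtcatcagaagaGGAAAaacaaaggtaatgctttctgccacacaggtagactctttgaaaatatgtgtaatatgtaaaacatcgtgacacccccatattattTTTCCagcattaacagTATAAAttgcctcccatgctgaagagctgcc
Il17a, chr1:20730655-20730904, plus strand: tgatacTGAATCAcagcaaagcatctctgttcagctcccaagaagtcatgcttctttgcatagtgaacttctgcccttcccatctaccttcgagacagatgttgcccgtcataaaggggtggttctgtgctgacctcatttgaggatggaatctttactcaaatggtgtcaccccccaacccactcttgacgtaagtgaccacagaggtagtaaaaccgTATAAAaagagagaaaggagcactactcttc
The start used by RefSeq lay at the nearest GENCODE start of the same build for Ifng and Il17a, within 2 bases of it for Il3 and within 5 bases for Il2. For Csf2 it lay 232 bases upstream of the nearest GENCODE start, so that window is not shown, but it is included in the motif counts below. The NFAT core GGAAA occurred in the windows of 8 of 9 genes, Il17a being the exception, and in 61.3% of the 32851 windows of the table. The TATA box letters TATAAA stood at -30 in Ifng and at -31 in Il2 and Il17a, were also present in Il13, and occurred in 13.6% of all windows. The AP-1 letters TGANTCA occurred in the window of Il17a only, at -244, against 7.81% of all windows. The GATA letters AGATAA occurred in Il3 (at -101), Csf2 and Il13, against 11.2% of all windows, and the T-box letters TCACAC occurred in Il21 and Il17a, against 14.5%. In Il17a the latter lay within the 50 bases past the start, which are not printed. The kappa-B letters GGGANTTCC, which can contain GGAAA, occurred in no window of the members and in 1.68% of all windows. A match is a string of letters, and its absence says only that these letters are not in this window.

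The 10 genes fell into a high and a low class. In CD8+4T1 the mean levels were 481 ± 61.6 FPKM for Ifng, 83.2 ± 8.09 for Csf2, 26.1 ± 2.34 for Il13 and 18.5 ± 3.86 for Il3 (SD, n = 5). The other 6 were below 1 FPKM, from 0.570 ± 0.248 for Il17a, 0.499 ± 0.133 for Il5 and 0.412 ± 0.282 for Il4 to 0.242 ± 0.110 for Il2, 0.165 ± 0.0274 for Il21 and 0.0554 ± 0.0602 for Il10 (SD, n = 5). Ifng and Csf2 each stood above every sample of the next gene in that order, while the ranges of Il13 and Il3 just met and the ranges of Il17a, Il5 and Il4 overlapped, as did those of Il4, Il2 and Il21 and those of Il21 and Il10. Ifng alone made up 75.6% to 82.5% of the summed FPKM of the 10 genes in CD8+4T1 and 68.7% to 75.9% in CD8+4T1+NaAc. The sum itself lay between 522 and 679 FPKM without acetate and between 425 and 779 with it, so the ranges overlapped.

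**Figure D1:**
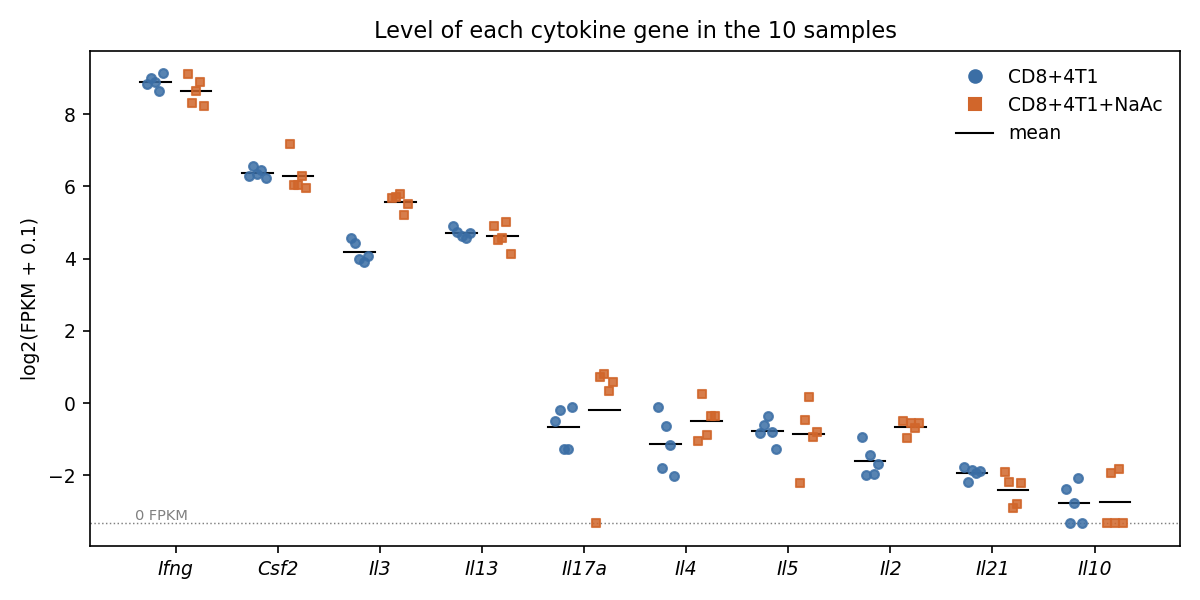
Level of each of the 10 cytokine genes in every sample, as log2(FPKM + 0.1), with circles for CD8+4T1, squares for CD8+4T1+NaAc and a line at each group's mean. The groups separate for Il3, and 1 square of Il17a lies at 0 FPKM.

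Of the 10 genes, 7 averaged 0.5 FPKM or more across the 10 samples and entered the fit across all genes (limma on log2(FPKM + 0.1), 15710 genes). That mean took in both groups, so a gene could enter through the group where it was high, as Il4 and Il5 did through the samples with acetate. With acetate 1 of the 7 was higher and 0 were lower at an adjusted p below 0.05, whereas 17.6% of all genes tested were higher and 19.0% were lower. The median log2 fold change was -0.08 over the 7 and -0.02 over all genes tested. At an unadjusted p below 0.05 the limma count was again 1 higher and 0 lower.

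The gene that changed was Il3, which encodes a growth factor for mast cells, basophils and early blood progenitors. Its 5 values were 23.5, 21.7, 15.7, 14.9 and 16.7 FPKM in CD8+4T1, from 154 to 247 fragments per sample. In CD8+4T1+NaAc they were 50.9, 51.9, 55.0, 37.0 and 45.1 FPKM, from 394 to 615 fragments. Every sample with acetate lay above every sample without it, a separation in this direction that 13.1% of all genes tested also showed. The log2 fold change was 1.38 ± 0.15 (SE), or 2.61-fold (95% interval 2.08 to 3.27), with an adjusted p of 7.4e-05 by limma. The exact two-sided permutation test gave p = 0.00794, the smallest that 5 against 5 samples allow. Il3 passed the limma test in each of the 23 other settings run, with log2 fold changes between 1.31 and 1.63. Leaving out replicate 1 of CD8+4T1+NaAc gave 1.36 and leaving out replicate 1 of both groups gave 1.45, so the change was as large without the libraries that stood apart. In CD8+4T1 Il13 was above Il3 in 5 of 5 samples, and in CD8+4T1+NaAc Il3 was above Il13 in 5 of 5.

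Csf2 lies next to Il3 on chromosome 11, on the same strand, with 15635 bases between the genes in the positions of the deposited table. Its product, GM-CSF, drives the growth and activation of granulocytes and macrophages. Csf2 measured 78.2, 95.0, 80.7, 87.3 and 74.6 FPKM in CD8+4T1 and 145, 65.2, 65.6, 77.5 and 62.0 FPKM in CD8+4T1+NaAc. Replicate 1 with acetate was the highest of all 10 samples, while 3 of the other 4 lay below every sample without acetate and 1, at 77.5 FPKM, lay within that range. Over all samples the log2 fold change was -0.08 ± 0.21 (95% interval -0.54 to 0.39) with an adjusted p of 0.80 (limma). Without replicate 1 of CD8+4T1+NaAc it was -0.30 ± 0.08 with an adjusted p of 0.015 (limma), in a fit that called 22.6% of all genes lower. Without replicate 1 of both groups it was -0.32, adjusted p = 0.018 (limma). Rescaling to the same total FPKM turned the direction over all samples to 0.10, and rescaling to T cell markers turned it to 0.17, neither of which passed the test. The call on Csf2 thus depended on 1 library.

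The ratio of Il3 to Csf2, which does not depend on how a sample was scaled, was compared after both sets of values had been seen. It was 0.301, 0.228, 0.194, 0.170 and 0.223 in CD8+4T1 and 0.351, 0.796, 0.839, 0.478 and 0.727 in CD8+4T1+NaAc. The groups did not overlap, and replicate 1 with acetate was the nearest to the other group. The difference of the mean log2 ratios was 1.46 (exact two-sided permutation test, p = 0.00794, higher in 5 of 5 samples). It was between 1.35 and 1.66 with each sample left out in turn. Il3 alone had already separated the groups at this p, so the ratio adds no separate support. The ratio of Il3 to Il13 also separated them, with a difference of 1.47, so the shift was not particular to Csf2.

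**Figure D2:**
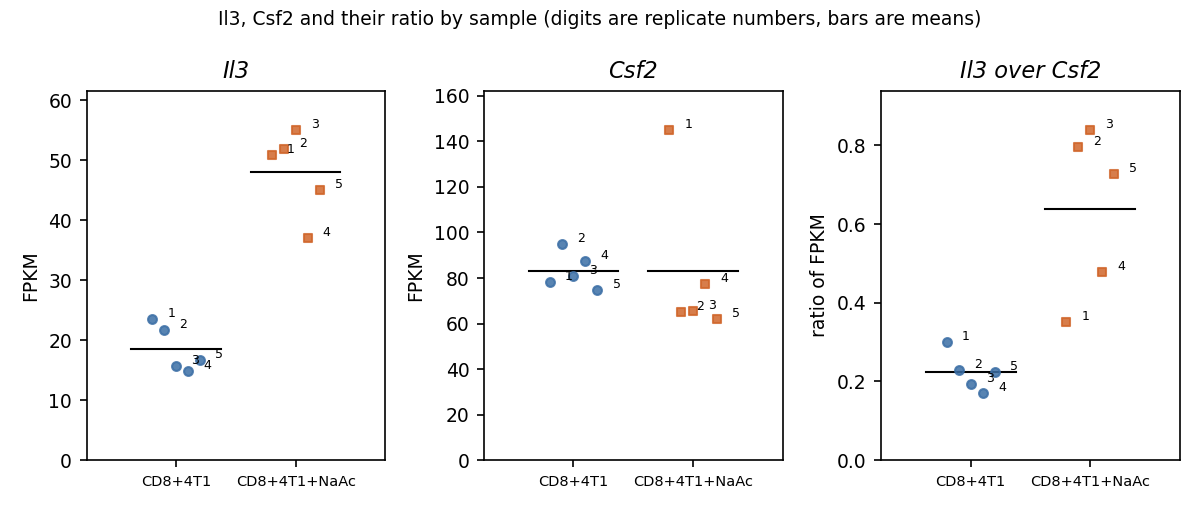
FPKM of Il3, FPKM of Csf2 and the ratio of Il3 to Csf2 by sample, with the replicate number beside each point and a line at each group's mean. Il3 is higher in all samples with acetate, Csf2 is highest in replicate 1 with acetate (145 FPKM), and the ratios of 0.351 to 0.839 lie above those of 0.170 to 0.301.

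Il4, Il13 and Il5 lie on the same chromosome, in that order, and Csf2 and Il3 follow further along it. Il13, a type 2 cytokine that acts on epithelium and smooth muscle, measured 29.7, 26.6, 24.8, 23.5 and 25.9 FPKM without acetate. With acetate it measured 29.7, 22.7, 23.5, 32.5 and 17.5 FPKM, so that 1 sample lay above, 2 within and 2 below the range of CD8+4T1. Its log2 fold change was -0.08 ± 0.15 (95% interval -0.41 to 0.25), adjusted p = 0.71 (limma). Il4, the cytokine that induces type 2 helper cells and the switch to IgE, rested on 3 to 25 fragments per sample. It measured 0.829, 0.187, 0.550, 0.346 and 0.148 FPKM in CD8+4T1 and 0.381, 1.08, 0.444, 0.675 and 0.687 FPKM in CD8+4T1+NaAc. The groups overlapped, and the log2 fold change was 0.66 ± 0.43 (95% interval -0.29 to 1.60), adjusted p = 0.26 (limma). Without replicate 1 of both groups it was 1.06, adjusted p = 0.057 (limma). Il5, the growth factor of eosinophils, measured 0.467, 0.559, 0.678, 0.474 and 0.315 FPKM without acetate and 0.114, 0.621, 1.02, 0.423 and 0.470 FPKM with it. Its lowest and its highest value were both in CD8+4T1+NaAc, and the log2 fold change was -0.08 ± 0.43 (95% interval -1.03 to 0.86), adjusted p = 0.90 (limma). The interval of Il4 reached above 1.06, the lower bound of the interval of Il3, and those of Il5 and Il13 did not.

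The stretch from Septin8 to Acsl6 holds these 5 cytokine genes. Of 9 other genes listed from it, 5 were higher with acetate and 2 were lower (limma, adjusted p below 0.05), with a median log2 fold change of 0.37. The carrier gene Slc22a4 rose by 2.57 on the log2 scale (adjusted p = 3.3e-05) from 0.197 ± 0.0633 to 1.65 ± 0.266 FPKM (SD, n = 5). Pdlim4, Septin8, Kif3a and Acsl6 rose by 0.79, 0.60, 0.55 and 0.37. Rad50, a DNA repair gene that carries the locus control region of the type 2 cytokine genes, fell by 0.37 and P4ha2 fell by 0.26. The calls on Rad50 and P4ha2 were lost on rescaling to the same total or to T cell markers. That on P4ha2 was also lost with 7 of the 10 samples left out in turn (adjusted p up to 0.11, limma). Without replicate 2 of CD8+4T1+NaAc 4 of the 9 were called. The transcription factor gene Irf1, between Il5 and Slc22a5, stood at -0.02 (adjusted p = 0.88).

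**Figure D3:**
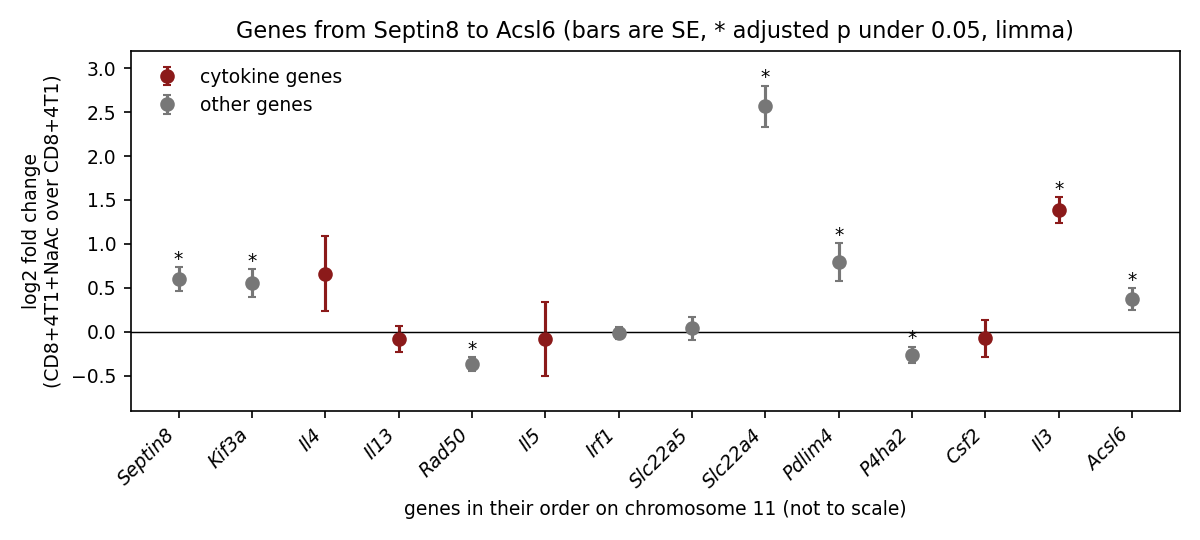
Log2 fold change with its SE (limma) of 14 genes in their order on chromosome 11, cytokine genes in red and others in grey, with a star for an adjusted p below 0.05. Il3 (1.38) and Slc22a4 (2.57) stand above the rest, and Csf2 beside Il3 lies near 0.

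Ifng, the most abundant of the 10 transcripts, did not pass the test. It measured 460, 512, 477, 395 and 560 FPKM in CD8+4T1 and 552, 315, 401, 473 and 297 FPKM in CD8+4T1+NaAc, from at least 6383 fragments in each sample. Replicates 2 and 5 with acetate lay below every sample without it, and replicate 1 with acetate lay above all but 1 of them. The log2 fold change was -0.27 ± 0.17, or 0.830-fold (95% interval 0.641 to 1.07), with an adjusted p of 0.24 (limma). The spread was wider with acetate, with a coefficient of variation of 26.3% against 12.8%. Without replicate 1 of CD8+4T1+NaAc the log2 fold change was -0.39 with an adjusted p of 0.056 (limma), and without replicate 5 of that group it was -0.16 with an adjusted p of 0.46 (limma), the ends of the range with each sample left out in turn. Rescaling to the same total brought it to -0.09 and rescaling to T cell markers to -0.02. The 3 protein-coding genes whose deviations from the group means followed those of Ifng most closely over the 10 samples were Xbp1, a factor of the unfolded protein response, Cacul1 and Rbpj, the nuclear factor of Notch signalling. Their Pearson correlations of 0.963, 0.931 and 0.909 were the highest among 7052 genes, a selection that favours high values. The genes of a sample also share its library depth. Among the cytokines themselves Il13 followed Ifng with 0.799 and Csf2 with 0.686 over the same 10 samples. Replicate 1 of CD8+4T1+NaAc was the highest of its group for both Ifng and Csf2, and these correlations were not computed without it. An unclassified transcript on the same strand, Gm49751, overlaps Ifng and held 10 to 125 fragments.

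Il17a, an inducer of neutrophil-attracting factors, gave different answers with and without replicate 1 of CD8+4T1+NaAc. It measured 0.613, 0.783, 0.314, 0.311 and 0.828 FPKM in CD8+4T1 and 0, 1.54, 1.66, 1.16 and 1.39 FPKM in CD8+4T1+NaAc. The fragments were 12, 16, 6, 6 and 16 without acetate and 0, 34, 32, 23 and 27 with it. The value of 0 in replicate 1 allows up to 3 fragments, or about 0.154 FPKM, and the other 4 samples with acetate all lay above the 5 without it. Over all samples the log2 fold change was 0.49 ± 0.74 with an adjusted p of 0.64 (limma). Without replicate 1 of CD8+4T1+NaAc it was 1.27 ± 0.29 with an adjusted p of 0.0053 (limma), in a fit that called 21.7% of all genes higher. With sample weights, which gave that library a weight of 0.177 against 0.898 to 2.32 for the rest of its group, it was 1.27 with an adjusted p of 0.024 (limma). At a pseudocount of 0.01 over all samples it was -0.01. In sum 56 fragments were counted without acetate and 116 with it, a ratio per sequenced fragment of 2.01 (95% exact interval 1.45 to 2.82, for counting error only).

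Il2, the T cell growth factor, lay below the level needed for the fit across all genes. It measured 0.419, 0.150, 0.268, 0.159 and 0.212 FPKM in CD8+4T1, from 8, 3, 5, 3 and 4 fragments. In CD8+4T1+NaAc it measured 0.613, 0.417, 0.583, 0.517 and 0.579 FPKM, from 12, 9, 11, 10 and 11 fragments. The groups touched at a single point, where replicate 1 without acetate (0.419) lay just above replicate 2 with acetate (0.417). The difference of the mean log2(FPKM + 0.1) was 0.95 (exact two-sided permutation test, p = 0.0159, not adjusted for the other genes). In a fit with no filter on low values, over 32272 genes of which 8.94% were called higher, limma gave the same difference with an adjusted p of 0.021. The size of the difference moved with the pseudocount, 0.32 at 1 and 1.22 at 0.01, with the same permutation p of 0.0159. The fragments summed to 23 and 53, a ratio of 2.24 (95% exact interval 1.35 to 3.82, for counting error only). Recombinant IL-2 protein had been added to the medium of both groups, and the level of the Il2 transcript was under 1 FPKM in every sample.

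Il21, which supports T cell memory and B cell help, and Il10 were lower still. Il21 measured 0.193, 0.120, 0.175, 0.162 and 0.173 FPKM without acetate and 0.167, 0.121, 0.0346, 0.0450 and 0.114 FPKM with it, from 11 to 17 and from 3 to 15 fragments. Replicates 3, 4 and 5 with acetate lay below all samples without it, and the other 2 lay within that range. The difference was -0.47 (exact two-sided permutation test, p = 0.0397, not adjusted), and limma with no filter gave an adjusted p of 0.30. The permutation p of Il21 also rose above 0.05 on rescaling to the same total (0.13) or to T cell markers (0.19), and with 7 of the 10 samples left out in turn. For Il10 the fragments were 2, 0, 1, 3 and 0 without acetate and 0, 4, 0, 4 and 0 with it, at most 0.181 FPKM. No difference in Il10 was detectable at this depth, and no fold change is given for it.

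**Figure D4:**
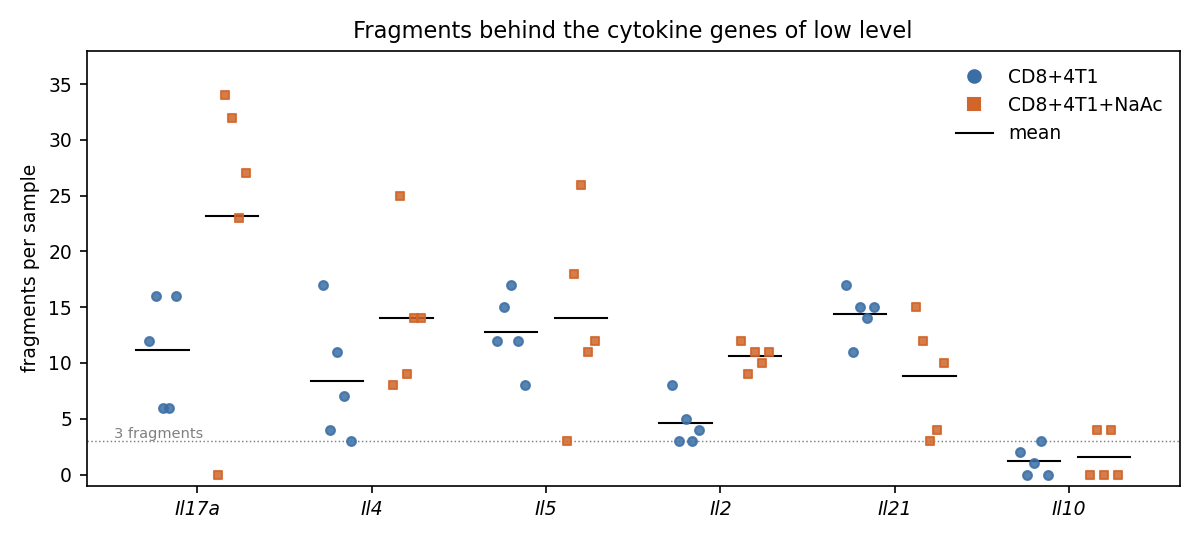
Fragments per sample for the 6 cytokine genes that averaged below 1 FPKM in CD8+4T1. Circles stand for CD8+4T1 and squares for CD8+4T1+NaAc, with a line at each group's mean and a dotted line at 3 fragments. Il17a has 0 fragments in 1 sample with acetate and 23 to 34 in the other 4, and Il2 has 9 to 12 with acetate against 3 to 8 without.

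Overlapping genes could add to the counts if strand was not used, and the strand setting of the counting is not given in the sources used here. The opposite-strand gene Adad1 over Il2, which itself held 3 to 12 fragments, held 0 to 3 fragments. The antisense transcripts over Il3 and Csf2 (Gm12223) held at most 7 and 8 fragments in a sample, and those over Il5 (Gm12214) and Il21 (Gm12534) held 0.

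Of 18 receptor genes for these cytokines 16 were tested, 7 were higher with acetate and 2 were lower (median log2 fold change 0.08). The summed FPKM of 14 markers of 4T1 and epithelial cells was 26.2 to 37.7 without acetate and 99.1 to 227 with it. The part of such cells in the receptor values was not tested. The increases included Il13ra1 (2.94) and Il17rc (2.07), from 0.236 and 0.261 FPKM without acetate. Both entered the fit only through their levels with acetate, 2.32 and 1.44 FPKM. Il13ra1 encodes a chain of the IL-13 receptor and of a receptor for IL-4, and Il17rc a chain of the IL-17 receptor. Csf2rb, the beta chain shared by the mouse receptors for IL-3, IL-5 and GM-CSF, rose by 0.71 to 1.40 FPKM, and Csf2rb2, a beta chain that serves IL-3 alone, rose by 0.90 to 1.13 FPKM. The chains that bind IL-3 and GM-CSF themselves gave -0.20 for Il3ra (adjusted p = 0.068) and -0.37 for Csf2ra (adjusted p = 0.17, limma). Il10ra rose by 0.71, Ifngr1 by 0.46 and Il21r by 0.33. The IL-2 receptor genes Il2ra and Il2rg fell by 0.30 and 0.26, calls that were lost on rescaling to the same total or to T cell markers, and Il2rb gave 0.14 (adjusted p = 0.17, limma).

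Of 10 regulators of type 1 cytokines, which govern Ifng, 4 were higher and 1 was lower (limma). Tbx21, which encodes the type 1 factor T-bet, fell by 0.58, and the increases included Hlx by 1.29 from 0.264 FPKM, Eomes by 0.42 and Il12rb2 by 0.23, the last call being lost with median-ratio scaling. Of 7 type 2 regulators, which govern Il4, Il5 and Il13, 5 were tested and 3 rose, Bhlhe41 by 0.81, Gfi1 by 0.71 and Gata3, the defining factor of type 2 cells, by 0.57, while Il4, Il13 and Il5 did not pass the test. Of 7 type 17 regulators, which govern Il17a, 6 were tested, 4 rose and 1 fell. The increases included Ahr by 1.77 from 0.356 FPKM, Il1r1 by 0.78 and Stat3 by 0.19, and Batf fell by 0.29, a call lost on rescaling to the same total or to T cell markers. The count of 5 type 17 regulators called fell to 2 without replicate 2 or 4 of CD8+4T1 or replicate 4 of CD8+4T1+NaAc, and to 3 without replicate 1, 3 or 5 of CD8+4T1 or replicate 3 or 5 of CD8+4T1+NaAc.

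Of 19 activation factors that bind cytokine promoters 6 were higher and 4 were lower, with a median log2 fold change of -0.01. The split was 6 higher and 7 lower without replicate 1 of CD8+4T1+NaAc, and 9 higher and 2 lower on rescaling to T cell markers. Of the FOS and JUN genes of AP-1, Fos, Fosb, Jun and Jund rose by 2.52, 1.71, 0.43 and 0.33. Junb, the most abundant of them, Fosl1 and Fosl2 gave 0.13, 0.19 and -0.13 and were not called (adjusted p = 0.34, 0.50 and 0.42, limma). Egr1, Irf4 and Nfkb1 fell by 0.74, 0.55 and 0.36, the last of these calls being lost on rescaling to T cell markers. Of the NFAT genes, Nfatc3 rose by 0.26 (adjusted p = 0.0057, limma), and Nfatc1 and Nfatc2 gave -0.12 and -0.05 (adjusted p = 0.074 and 0.40, limma). Of 8 factors that govern the decay of cytokine mRNA, Zfp36 and Zfp36l2 rose by 0.57 and 0.50, and Zc3h12d, Rc3h2 and Elavl1 fell by 0.39, 0.33 and 0.21. The decreases of these 3 were lost on rescaling to the same total, Elavl1 turned on rescaling to T cell markers, and all 8 passed the test without replicate 1 of CD8+4T1+NaAc, 3 higher and 5 lower.

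Transcripts that answer to the cytokines were mixed. Of 18 interferon-gamma targets 17 were tested, 5 rose and 6 fell, with a median of -0.12. Cxcl9, Cxcl10 and Socs1 rose by 1.89, 0.84 and 0.76. Of the GTPase genes, Iigp1, Gbp5 and Ifi47 fell by 0.74, 0.62 and 0.49, Gbp4 rose by 0.28 (adjusted p = 0.025, limma), and Gbp2, Gbp3, Igtp and Irgm1 were not called (adjusted p = 0.17 to 0.91, limma). Gbp7 fell by 0.17 (adjusted p = 0.047, limma). Gbp4 and Gbp7 were named after their values were seen. The call on Gbp4 was lost with 6 of the 10 samples left out in turn (adjusted p up to 0.061, limma). That on Gbp7 was lost with 8 of them left out in turn (adjusted p up to 0.11, limma). Gbp7 also lost its call and turned on rescaling to the same total or to T cell markers. Of 12 targets of IL-2 and STAT5, 2 rose and 5 fell, with a median of -0.36. The feedback inhibitor gene Socs3 rose by 1.13, and Bcl2, Tnfrsf9, Pim1, Lif and Il2ra fell by 0.74, 0.57, 0.49, 0.42 and 0.30. The call on Lif was lost on rescaling to the same total or to T cell markers, and that on Pim1 on the latter. The rescaling to T cell markers changed these splits to 7 higher and 3 lower for interferon-gamma and to 3 higher and 2 lower for IL-2.

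Among 15 other cytokine genes of T cells 13 were tested, 3 were higher and 6 were lower. Spp1, Il6 and Il22 rose by 2.60, 0.89 and 0.69, and Lta, Il24 and Ltb fell by 1.33, 0.78 and 0.64, of which Il24 lost its call on rescaling to T cell markers. The split was 4 higher and 4 lower with the same total, and 4 higher and 2 lower on rescaling to T cell markers. Spp1 averaged 12.7 FPKM without acetate and 78.5 with it, and the part of tumour cells in these values was not tested. Il6 is also among the cytokines that tumour cells secrete, described next.

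Markers of other cells moved with acetate. Of the 14 markers of 4T1 and epithelial cells, whose sums are given above, 10 were tested and 7 rose, among them Krt8 by 3.33, Lcn2 by 3.28, Krt7 by 3.03, Krt18 by 2.89, Itgb4 by 1.51 and Areg by 1.38, while Krt19 and Cldn4 held 0 to 11 fragments. Of 8 cytokine genes that tumour cells secrete, 6 rose and 1 fell, Csf3 by 3.29, Cxcl5 by 3.25, Cxcl1 by 3.16, Ccl2 by 2.74 and Csf1 by 0.94. In replicates 1 to 5 with acetate the marker sums were 117, 227, 146, 173 and 99.1 FPKM, beside 50.9, 51.9, 55.0, 37.0 and 45.1 FPKM of Il3.
The mast cell and basophil markers, cells that also make Il3, Il4 and Il13, summed to 3.52 to 4.55 FPKM without acetate and to 6.39 to 8.73 with it. Of the 8, Kit alone was tested and rose by 1.05, and it made up most of the sum (2.90 and 6.12 FPKM). Cpa3 averaged 0.438 and 0.479 FPKM, Prss34 was at 0 in every sample, and the proteases Mcpt8 and Mcpt4 held at most 11 fragments. CD4 T cell markers summed to 72.1 to 83.8 and 69.3 to 80.4 FPKM. Cd4 itself rose by 1.44, from 0.541 to 1.60 FPKM, Izumo1r fell by 0.38 (a call lost on rescaling to T cell markers), and Foxp3 held 6 to 23 fragments. The NK and innate lymphoid markers summed to 17.6 to 31.3 and 35.6 to 49.3 FPKM, of which Klrc1, a receptor gene that CD8+ T cells also use, made up most (22.3 and 37.8 FPKM, a rise of 0.78), and Klra4 was at 0. Myeloid markers summed to 26.4 to 36.0 and 27.5 to 31.4 FPKM with a rise of Lyz2 (0.96) alone among 4 tested. The count of myeloid calls was 0 without replicate 2, 3, 4 or 5 of CD8+4T1 or replicate 3 or 4 of CD8+4T1+NaAc, and 2 without replicate 1 of CD8+4T1. B cell markers summed to 13.1 to 14.3 and 12.1 to 21.1 FPKM with 0 of 3 called, and 2 were called higher without replicate 1 of CD8+4T1+NaAc, with the same total or with T cell marker scaling. The defining genes of CD8+ T cells were present in both groups, with Cd8a at 78.6 and 76.5 FPKM, and of 11 T cell markers 0 rose and 7 fell, Cd3d by 0.54, Cd3g by 0.53, Lat by 0.40, Cd3e by 0.36, Lck by 0.32 and Cd2 by 0.29. With the same total FPKM 2 of the 11 were higher and 5 were lower. The part of these other cells in the change of Il3, or in the values of the other members, their neighbours on chromosome 11, the receptors, the regulators, the targets and the other cytokines, was not tested. Of 91 genes called in these lists, 78 kept the call with each sample left out in turn. Kif3a lost it without replicate 2 of CD8+4T1+NaAc, and the other 12 (Bhlhe41, Batf, Il12rb2, Stat3, Acsl6, P4ha2, Gbp4, Gbp7, Ikzf3, Cd2, Il1r1 and Lyz2) each lost it with 4 to 8 of the 10 samples left out, where their highest adjusted p was 0.059 to 0.11 (limma). For Bhlhe41 these were replicates 2, 3, 4 and 5 of CD8+4T1 and replicates 3, 4 and 5 of CD8+4T1+NaAc, without which 2 type 2 regulators were called.

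**Figure D5:**
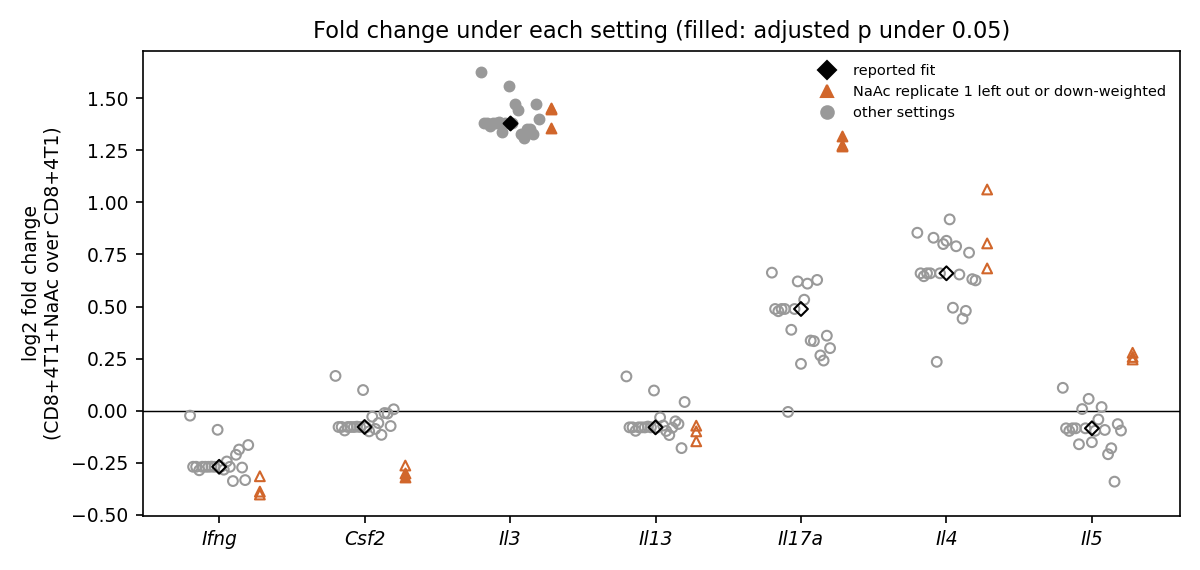
Log2 fold change of the 7 tested cytokine genes in the reported fit (diamonds), in 3 fits that leave out or down-weight replicate 1 of CD8+4T1+NaAc (triangles) and in the other settings (circles), filled where the adjusted p is below 0.05. Il3 is filled in all settings, Il17a in the 3 triangles and Csf2 in 2 of them, and Ifng, Il13, Il4 and Il5 in none.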

How the data were processed

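RNA sequencing data of 10 samples (5 CD8+4T1, 5 CD8+4T1+NaAc) were used. The authors deposited FPKM per gene and sample. The gene length, an other, unnormalized column, was deposited beside it. The submitters' processing notes name fastp, HISAT2 2.0.5, StringTie 1.3.3b and featureCounts 1.5.0-p3, and the genome build, annotation and strand setting are not given in the sources used here. FPKM times gene length gave whole fragments for 100% of values (within 0.1), at 16306447 to 18853726 fragments per library.

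Groups were compared with limma 3.58.1 (R 4.3.3; eBayes with trend and robust) on log2(FPKM + 0.1) for the 15710 genes averaging 0.5 FPKM or more, with Benjamini-Hochberg adjustment over all of them and calls at an adjusted p below 0.05. Fold changes on this scale understate those of low genes. The mean took in both groups, so a gene could pass through the group where it was high. Through the samples with acetate this held for Slc22a4, Il13ra1, Il17rc, Hlx, Ahr, Il1r1, Cxcl9 and Krt7, among others. The counts of genes higher with acetate include them. Members averaging below 0.5 FPKM were compared by exact two-sided permutation tests over the 252 assignments (Python 3.11.15, SciPy 1.17.1). The summed FPKM of the members was given without a test. All 10 members were named. From each gene list the called genes were named, up to 6 by size, with defining markers, some further list genes and the 3 genes most like Ifng. A few list genes are not reported here by name. The members and lists were chosen with earlier results of these data known. Intervals of fragment ratios and floors cover counting error only, and intervals of limma fold changes rest on the spread between samples. The fit was tested on simulated data that held no library standing apart and no change in the mix of cells, so it does not cover those conditions. Alternatives were other pseudocounts, filters, scalings and variance models, a voom fit on the recovered fragments, a replicate block and each sample left out. The ratios of Il3 to Csf2 and to Il13, the order of Il3 and Il13 and the correlations between members were added after the data were seen.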

Additional observations from a re-analysis of the deposited data

Results flagged for a closer look

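The 10 cytokine genes and 75 further named genes were checked for a sample that stands apart from the other 4 of its group, by the gap to its nearest neighbour over the range of log2(FPKM + 0.1). A ratio above 0.71 was taken as apart, which chance gives in about 1 of 20 groups, and 12 of 170 groups exceeded it against 8.5 by chance. Replicate 1 of CD8+4T1+NaAc was the sample in 8 of the 12 and replicate 1 of CD8+4T1 in 3. Among the cytokine genes it was Csf2 in replicate 1 of CD8+4T1+NaAc (145 FPKM against 62.0 to 77.5, ratio 0.737) and Il17a in the same sample (0 against 1.16 to 1.66 FPKM, ratio 0.885). In the same library Csf2rb2 (0.806), Ifi47 (0.766), Pdlim4 (0.752), Cd3d (0.721) and Lat (0.818) were lowest and Cd3g (0.747) was highest of its group. In replicate 1 of CD8+4T1, Csf2rb (0.745), Lta (0.714) and Cd3d (0.718) were lowest, and in replicate 5 of CD8+4T1 Il10ra was highest (0.876).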

How the results depend on the processing

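The call on Il3 held in all 23 alternatives of its limma fit, and Ifng, Il4, Il5 and Il13 passed the test in none of theirs. The number of cytokine genes called was 2 with no filter on low values (Il3 and Il2), 2 with sample weights (Il3 and Il17a), 3 without replicate 1 of both groups, and 1 to 3 with each sample left out, the 3 being Il3, Il17a and Csf2 without replicate 1 of CD8+4T1+NaAc. Of all genes tested these fits called 17%, 48.3%, 44.4% and, without that library, 44.3%, against 36.6% in the reported fit. At a mean of at least 5 FPKM 3733 of 7800 genes were called (47.9%), 1257 higher and 2476 lower. In the reported fit 5742 of 15710 were called, 2764 higher and 2978 lower. Csf2 gave 0.17 with T cell marker scaling, 0.10 with the same total, -0.32 without replicate 1 of both groups, and -0.30 to 0.0069 with each sample left out. Il17a gave -0.0056 at a pseudocount of 0.01, 1.27 with sample weights, 1.32 without replicate 1 of both groups, and 0.24 to 1.27 with each sample left out. Il5 gave 0.11 with T cell marker scaling, 0.06 with the same total, 0.0079 at a pseudocount of 1, 0.25 without replicate 1 of both groups, 0.28 with sample weights, and -0.34 to 0.26 with each sample left out. Il13 gave 0.16 with T cell marker scaling, 0.10 with the same total, and -0.18 to 0.042 with each sample left out. Il4 gave 0.23 at a pseudocount of 1 (adjusted p = 0.28), and 0.44 to 0.92 with each sample left out. The difference of Il21 was -0.09 at a pseudocount of 1 and -0.89 at 0.01 (both p = 0.0397), -0.38 with the same total (p = 0.13), -0.34 with T cell marker scaling (p = 0.19), -0.56 without replicate 1 of both groups (p = 0.057), -0.47 with limma and no filter (adjusted p = 0.30), and -0.59 to -0.35 with each sample left out (exact permutation p = 0.016 to 0.095). The cause of these shifts was not tested.

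Same-numbered samples of the groups did not deviate together (correlations of -0.03 to 0.07), so the numbers were not taken as pairs. With the replicate block 5399 genes were called and Il3 kept its call (adjusted p = 0.00071, limma). As sign flips over the 5 pairs, which cannot go below 0.0625, Il2 (0.95), Il3 (1.38) and the ratio of Il3 to Csf2 (1.46) each gave the smallest possible value of 0.0625, and Il21 (-0.47) gave 0.13. Depth limits the 6 cytokine genes below 1 FPKM, where 3 fragments amount to 0.0342 to 0.157 FPKM.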
